A study of Sus scrofa with 14 samples.

Results

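The comparison of white onion digest (WOd) with saline digest (Sd) in pig small intestine rested on 8 of the 14 arrays of the series. They were chosen by their labels, the WOd and Sd segments of pigs 5, 6, 7 and 8, with 1 segment and 1 array per treatment and pig. In the small intestinal segment perfusion (SISP) technique, adjacent segments of small intestine, labelled as jejunum and taken from its middle stretch by the methods, were perfused for 6 h in anaesthetised male piglets aged 5 weeks, with blood supply and innervation kept, and mucosa was then scraped from the segment. WOd is the centrifuged product of mashed white onion after incubation with pepsin and then with pancreatin and bile salts. Sd went through the same steps with a salt solution in place of onion. According to the study's methods, WOd was diluted less than Sd and in peptone, whereas Sd was diluted in saline with casamino acids and glucose. The onion, the dilution of the digest and the diluent therefore cannot be told apart. A second series of pigs, 1, 2 and 4, had an Sd segment and a segment with yellow onion digest (YOd), prepared in the same way, and these 6 arrays serve only for the test of the difference between the onions.

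Jejunal mucosa is a surface where digested food meets absorptive cells. Onion is rich in flavonols and in sulphur compounds. Electrophiles among such compounds can release the transcription factor NRF2 from its inhibitor KEAP1, after which genes for enzymes such as NQO1, aldo-keto reductases and glutathione synthesis are transcribed. Enterocytes also sense sterols: INSIG1 holds the sterol-sensing machinery in the endoplasmic reticulum, and transcription of sterol synthesis genes falls when sterols are plentiful.

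The labelled tissue was checked against marker genes. Of 16 enterocyte markers 9 had a named probe, and all 9 were well above background on all 8 arrays. Their summed signal, in units of the 75th percentile of an array, was 968 to 1518 on the Sd arrays and 1076 to 1409 on the WOd arrays. Signal of other cells was present too. The 12 measured T and NK lymphocyte markers summed to 39.7 to 201 on the Sd arrays and 43.8 to 220 on the WOd arrays. The 5 measured smooth muscle markers summed to 21.7 to 32.8 and 13.2 to 33.9, respectively. Fewer cells of a type and less RNA per cell cannot be told apart in such scrapings.

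Pig 7 stood apart. After subtraction of the group means, its Sd and WOd arrays correlated with r of 0.31 across 19559 probes, whereas r was 0.69, 0.68 and 0.67 in pigs 5, 6 and 8. Its Sd array was alone among the 8 on its slide and in its scan session. Over all 14 arrays it shared both only with the Sd array of pig 2, from the YOd series. The median absolute log2 ratio of WOd over Sd was 0.32 in pig 7 against 0.24, 0.25 and 0.27 in pigs 5, 6 and 8. Slide, scan session and segment cannot be told apart in pig 7, and results that turn on it are given with and without it. Its labels were used as given. INSIG1, MT1A, SQLE and KLF10 had the same sign in pig 7 as in the other pigs, whereas AKR1C1, AKR1C2, NQO1 and FOLH1 had the opposite sign. Both sets were picked with their values known, and the paired test favours genes on which the pigs agree. Nothing is therefore read from this contrast. An exchange of its arrays, which would turn the sign of every pig 7 ratio, was not tested.

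A level below is the log2 of the signal over the 75th percentile of its array, with a floor of -4.43, and a ratio is the WOd level minus the Sd level of a pig. A gene passed the test when the raw p of limma with pig as a block was under 0.05 and the fold change was over 1.5, the thresholds of the study. By this rule 339 of 26099 probes passed (1.3%), 232 of them upregulated and 107 downregulated. Without scaling between arrays the split was 167 against 119. A raw p under 0.05 alone was reached by 816 probes (3.13%), and after Benjamini-Hochberg adjustment of the limma p-values 0 remained, the lowest adjusted p being 0.99968. Among the 2470 genes that could be named, 19 were upregulated (0.769%) and 9 downregulated (0.364%), 59 had a raw p under 0.05, and 0 passed after adjustment. Every change over the 4 pigs named below is therefore a change by the raw p only.

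The genes that rose included PDX1, KLF10, GDF15, GPX2 and KCNJ5. PDX1 is a homeobox factor of the pancreas, duodenum and proximal gut. The PDX1 level went from 2.16 in Sd to 3.08 in WOd in pig 5, from -0.61 to 0.80 in pig 6, from 0.39 to 0.44 in pig 7 and from 1.35 to 2.81 in pig 8. All 4 pigs had the higher level in WOd, by very little in pig 7, and the levels of the groups overlapped because pigs differed widely. The log2 fold change of PDX1 was 0.96 (SE 0.26), or 1.95-fold, and 1.26 without pig 7. The 6 measured markers of proximal intestine, of which PDX1 is a member, had a higher summed signal in WOd in 4 of 4 pigs, while their median ratios were 0.09, 0.17, -0.29 and 0.50 in pigs 5, 6, 7 and 8. Their part in the PDX1 result was not tested.

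KLF10 is a Kruppel-like repressor that TGF-beta induces early. Its level went from 3.49 to 4.06 in pig 5, from 2.80 to 3.54 in pig 6, from 3.59 to 4.11 in pig 7 and from 2.36 to 3.0 in pig 8. The 4 ratios lay close together, between 0.52 and 0.74, while levels overlapped between groups. The log2 fold change was 0.62 (SE 0.15), and 3 of its 4 probes passed the thresholds. GDF15 is a secreted member of the TGF-beta family that cells release under stress. The GDF15 level went from -0.93 to -0.01 in pig 5, from 0.53 to 0.88 in pig 6, from -1.60 to -0.44 in pig 7 and from -0.86 to -0.49 in pig 8. It was higher in WOd in each pig, with the largest ratio, 1.16, in pig 7, and the groups overlapped. Its log2 fold change was 0.70 (SE 0.20). KLF15, a Kruppel-like factor of fasting metabolism, moved the other way, with ratios of -0.99, -1.22, -0.06 and -0.77 in pigs 5, 6, 7 and 8 and a log2 fold change of -0.76 (SE 0.22). In the list of TGF-beta family and Kruppel-like genes these 3 of 24 passed, 2 upregulated and 1 downregulated, and the median log2 fold change was 0.06, against 0.04 over all named genes.

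**Figure D1:**
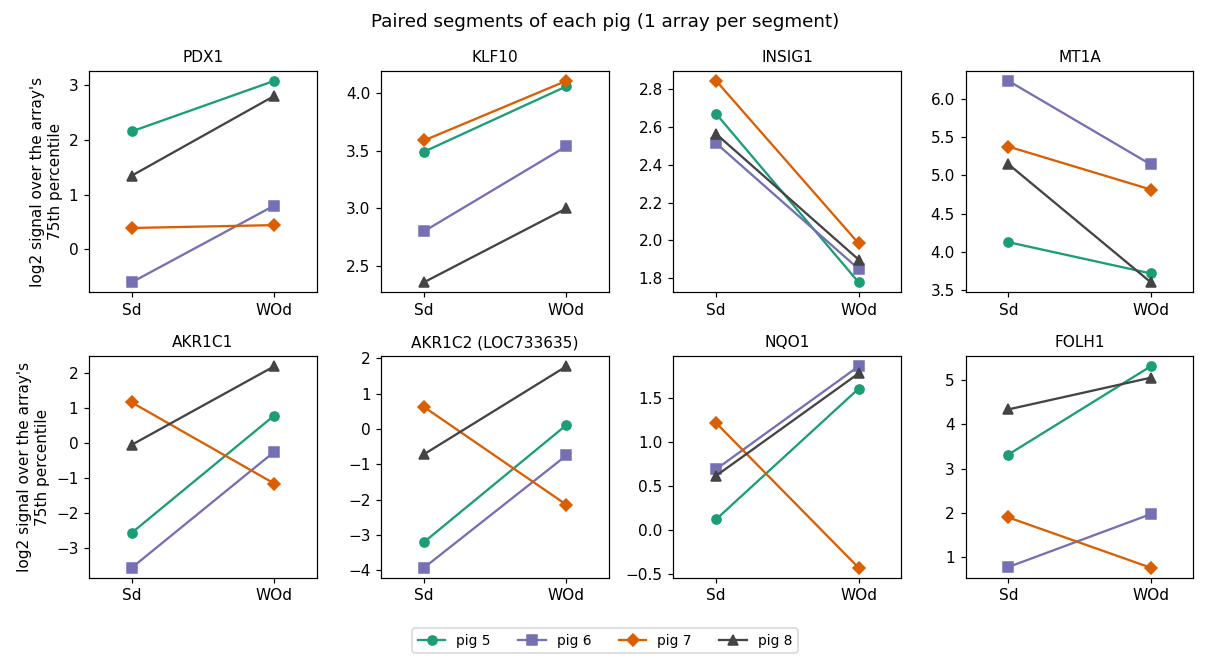
Levels of genes in the Sd and WOd segment of each pig (y axis: log2 signal over the 75th percentile of the array; x axis: segment), with each line joining the segments of 1 pig. Lines of KLF10 slope up and lines of INSIG1 slope down in all 4 pigs, whereas lines of AKR1C1 and NQO1 slope up in pigs 5, 6 and 8 and down in pig 7.

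Genes of sterol synthesis and of its control were among those that fell. INSIG1 went from 2.67 to 1.78 in pig 5, from 2.51 to 1.85 in pig 6, from 2.84 to 1.98 in pig 7 and from 2.56 to 1.90 in pig 8. The lowest Sd level lay above the highest WOd level, so that the groups did not overlap. In either direction this held for 8 of 2431 named genes, P2RY4, SLC25A23 and CDH13 among them. Its log2 fold change was -0.77 (SE 0.15, raw p 0.00153). Only 1 of its 2 probes passed. SQLE, the squalene epoxidase of cholesterol synthesis, went from 3.0 to 2.84 in pig 5, from 3.76 to 3.16 in pig 6, from 3.80 to 2.74 in pig 7 and from 3.34 to 2.62 in pig 8. It was lower in WOd in each pig, the groups overlapped through the Sd level of pig 5, and its log2 fold change was -0.63 (SE 0.19), with 2 of 3 probes past the thresholds. The remaining members of the list of 13 fatty acid and sterol synthesis genes did not pass, among them STARD4, a sterol carrier, at -0.29, FDPS at -0.10, FASN at 0.13, SCD at 0.16 and ACACA at 0.22. The median of the list was -0.07. Sd and WOd differ in their dilution of bile salts, and the part of this in the sterol genes cannot be told apart from that of onion.

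MT1A is a metallothionein that binds zinc and copper. Its level went from 4.13 to 3.72 in pig 5, from 6.24 to 5.14 in pig 6, from 5.38 to 4.82 in pig 7 and from 5.15 to 3.6 in pig 8. All pigs had the lower level in WOd, with overlap between the groups, and the log2 fold change was -0.90 (SE 0.23), with both of its probes past the thresholds. Metallothionein genes are near copies of each other, so the probes may also take up related transcripts. In the list of metal handling genes it was the 1 of 9 that passed, and the list's median was -0.01. MT3 was at 0.09 and the iron importer SLC11A2 at 0.01.

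Among redox enzymes GPX2, the glutathione peroxidase of gut epithelium, passed. The GPX2 level went from -2.02 to -1.39 in pig 5, from -3.31 to -3.04 in pig 6, from -4.29 to -3.07 in pig 7 and from -3.42 to -2.88 in pig 8, with overlap between the groups. The level was low on all arrays and highest in pig 5. Its log2 fold change was 0.67 (SE 0.20). Of the 13 measured peroxidases, dismutases and catalase it was the 1 that passed, and the 1 with a raw p of limma under 0.05. A log2 fold change above 0 was seen for 12 of them, against 60.5% of all named genes. Their median was 0.12, against 0.04. CAT, the peroxisomal catalase, was at 0.34, GPX4 at 0.28, SOD1 at 0.23 and PRDX6 at -0.24.

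Matrix metalloproteinases cut extracellular matrix. MMP3, stromelysin, was upregulated by 0.77 (SE 0.29), with ratios of 0.03, 1.19, 1.62 and 0.22 in pigs 5, 6, 7 and 8. MMP20, an enamel protease that the study's table of affected genes calls MMP25, was downregulated by -0.76 (SE 0.27). Both arrays of pig 5 were at the floor, which gives no ratio there, and the WOd array of pig 7 was too, so that its ratio is a bound. The collagenase MMP1 was at 0.57 and the gelatinase MMP9 at 0.52, with raw p-values of 0.0150 and 0.0144, and neither passed the fold threshold. Both were singled out after their values were seen. The list had 13 measured members with a median of 0.09, and TIMP1, an inhibitor, was at -0.21. LOX, which crosslinks collagen and elastin, had ratios of -0.68, 0.18, -1.47 and -0.59 and a log2 fold change of -0.64 (SE 0.27).

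LEF1 is a partner of beta-catenin in Wnt signalling that lymphocytes also express. Its ratios were -0.37, -1.92, -0.79 and -0.03 in pigs 5, 6, 7 and 8, and its log2 fold change was -0.78 (SE 0.31). It was the 1 of 6 measured Wnt genes that passed, the list's median being 0.04, with CTNNB1 at 0.09, MYC at 0.05 and ASCL2 at 0.03. The summed T and NK lymphocyte markers were 176 in Sd and 124 in WOd of pig 8, the pig with the LEF1 ratio nearest 0, and 62.2 and 87.6 in pig 7. In pig 6, where the LEF1 ratio was lowest, they were 39.7 and 43.8. There the B cell marker CD79A had a ratio of -4.18 and the lymphoid chemokine CCL19 one of -2.40. CD79A was well above background on 4 Sd arrays but only 3 WOd arrays. XBP1, from the same B and plasma cell list, had a ratio of 0.39 in pig 6. The 5 measured markers of that list summed to 90.0 in Sd and 113 in WOd of pig 6. Their sum was higher in WOd in 4 of 4 pigs. The part of these cells in the LEF1 result was not tested. EDN1, the vasoconstrictor endothelin, had ratios of -1.38, -0.74, 0.26 and -0.92 and a log2 fold change of -0.69 (SE 0.27), and C13H21orf62 had one of -0.87 (SE 0.27) with 1 WOd array at the floor.

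The remaining upregulated genes had log2 fold changes between 0.60 and 0.73. The ion channel gene KCNJ5 had ratios of 0.70, 1.03, 0.38 and 0.52 in pigs 5, 6, 7 and 8, the Sd level of pig 6 being at the floor, and was the 1 of 22 measured ion and water transport genes on its list that passed. AQP5, a water channel, rose by 0.62, the nucleotide receptor P2RY4 by 0.69 and GHRHR, the receptor of growth hormone releasing hormone, by 0.66. P2RY4 and GHRHR were at the floor on 2 Sd arrays each. The genes AGXT2, SLC25A23, SLC24A2 and ACRV1, given below, were at the floor on 1 Sd array each. Ratios in those pigs are bounds. PGA5, a pepsinogen, rose by 0.69, with a ratio of 1.56 in pig 5 and of 0.38, 0.45 and 0.39 in pigs 6, 7 and 8. It has near copies, and 2 of its 5 probes passed. AGXT2, a mitochondrial aminotransferase, rose by 0.73 but had a ratio of -0.35 in pig 7, and by 1.09 without that pig. MAPK12, a p38 kinase, rose by 0.65, the muscle enolase ENO3 by 0.60, the cadherin CDH13 by 0.62, the carriers SLC25A23 and SLC24A2 by 0.65 and 0.62, SRSF12, a splicing regulator, by 0.66, TMEM63A, a membrane channel, by 0.64 and ACRV1, an acrosomal protein of sperm, by 0.68. Of the 28 genes, 23 had ratios of the same sign in all 4 pigs, which the paired test favours, against 8.56% of all named genes. PDX1, MT1A and INSIG1 passed whichever pig was left out. Without pig 7 the call was lost for 12 genes, namely GDF15 (0.55), GPX2 (0.48), MMP3 (0.48), GHRHR (0.50), MAPK12 (0.52), TMEM63A (0.57), CDH13 (0.40), ENO3 (0.50), SLC24A2 (0.48), SQLE (-0.49), LOX (-0.36) and LEF1 (-0.78). Without pig 6, KLF10 was at 0.58 and LEF1 at -0.40, neither past the thresholds.

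**Figure D2:**
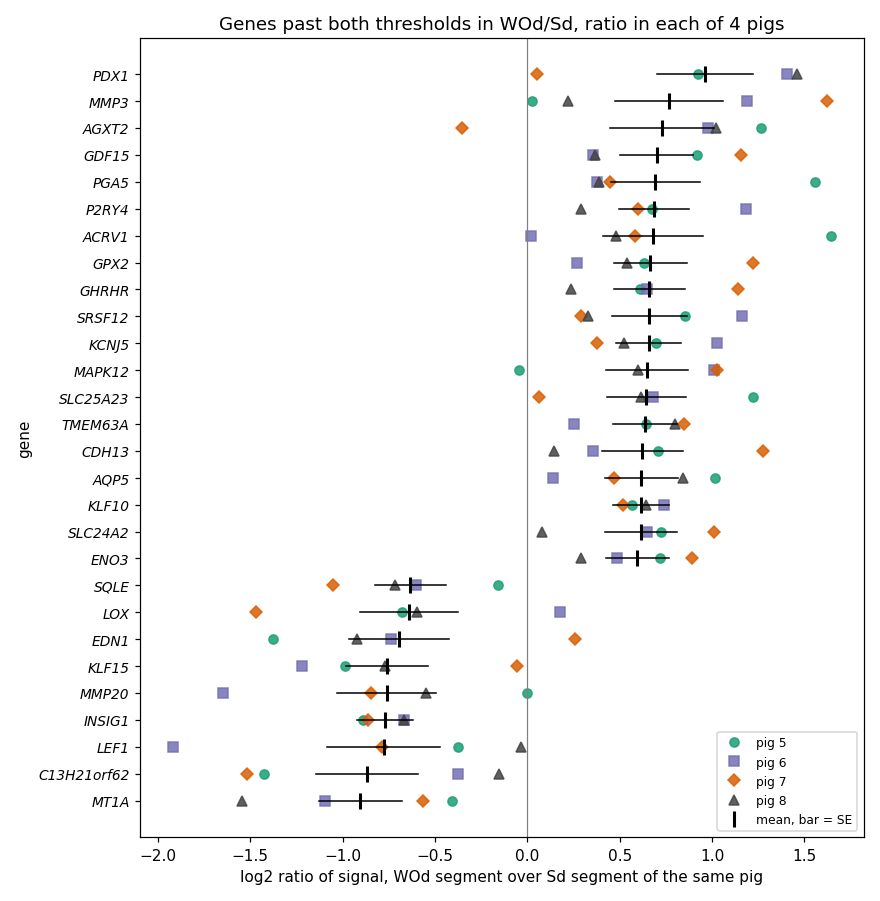
WOd/Sd log2 fold change with its SE for the 28 named genes past both thresholds (x axis, log2), with the ratio of each pig as a point. Fold changes run from -0.90 for MT1A to 0.96 for PDX1, and single pigs lie on the other side of 0 for genes such as EDN1, LOX and AGXT2.

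Probes that only the study's table of affected genes could name were kept apart, because that table was chosen by change on these arrays and is not independent evidence of direction. With 1 sign in all 4 pigs, upregulated probes included NAT6 at 0.82 (SE 0.17), whose accession-named probe was at 0.58 and missed the fold threshold, and SEC31B, a coat protein of vesicles leaving the endoplasmic reticulum, at 0.81. FAM83E was at 0.81, LOC100621695 at 1.05 and LOC100157320 at 0.88. Downregulated were ZNF462, a zinc finger protein, at -1.34, OSR2, a transcription factor, at -0.97, LOC100621352 at -1.05, LOC100153642 at -0.81 and LOC102158868 at -0.80.

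Enzymes on the list of AKR1C and NRF2 targets did not pass over the 4 pigs, and in pig 7 several of them ran opposite to pigs 5, 6 and 8. The study, by contrast, reported AKR1C1 and AKR1C2 as raised by both onions in the pig model, at the same thresholds. The reason for this disagreement was not tested. The study itself described the pig responses as very variable and named pigs 2 and 7 as departing from the others. AKR1C1 is an aldo-keto reductase that reduces steroids and reactive carbonyls. Its level went from -2.57 to 0.77 in pig 5, from -3.57 to -0.26 in pig 6 and from -0.06 to 2.18 in pig 8, whereas it went from 1.15 to -1.17 in pig 7. Pig 7 thus had the highest Sd level and the lowest WOd level of the 4. The log2 fold change was 1.65 (SE 0.90) with all pigs and 2.96 (SE 0.26) without pig 7, where the adjusted p of limma was 0.0252. AKR1C2, listed as LOC733635 and close in sequence to AKR1C1, went from -3.20 to 0.11, from -3.92 to -0.75 and from -0.72 to 1.77 in pigs 5, 6 and 8 and from 0.62 to -2.14 in pig 7. Its log2 fold change was 1.55 (SE 0.96), and 2.99 (SE 0.23) without pig 7, with an adjusted p of limma of 0.0107. The 3 probes of AKR1C1 and the probe of LOC733635 were the 4 probes that passed Benjamini-Hochberg adjustment without pig 7. With pig 5, 6 or 8 left out instead, 0 probes passed it, as with all 4 pigs. Pig 7 is the pig in which these probes had the opposite sign. The adjusted values without it therefore describe pigs 5, 6 and 8 and do not establish a rise. The probes may read each other's transcripts.

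NQO1, the quinone reductase, went from 0.12 to 1.61 in pig 5, from 0.70 to 1.87 in pig 6 and from 0.62 to 1.78 in pig 8, but from 1.22 to -0.43 in pig 7. Again pig 7 had the highest Sd and the lowest WOd level. Its log2 fold change was 0.54 (SE 0.50) and 1.27 without pig 7. PTGR1, a reductase of prostaglandins and alkenals, was at 0.43, with a ratio of -0.35 in pig 7, GCLM, the modifier subunit of glutathione synthesis, at -0.07 over the 3 pigs with a usable Sd spot, and the haem oxygenase HMOX1 at 0.10. HSPB1, a small heat shock protein, was at 0.11 and KEAP1, the inhibitor of NRF2, at -0.07. In the list of AKR1C and NRF2 target enzymes 0 of 15 passed with all 4 pigs by limma, also at a raw p under 0.05 alone. Their median log2 fold change was 0.10, and the median ratios were 0.33, 0.45, -0.35 and 0.19 in pigs 5, 6, 7 and 8. Without pig 7, AKR1C1, AKR1C2, NQO1, PTGR1, EPHX1 and CBR1 passed both thresholds. PTGR1 had 2 probes, and the dimmer one, not used here, was at -0.50 over the 4 pigs.

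FOLH1, the brush border enzyme that trims folate polyglutamates, named FOLH1B in the reference, went from 3.32 to 5.32 in pig 5, from 0.77 to 1.97 in pig 6 and from 4.34 to 5.06 in pig 8, and from 1.90 to 0.76 in pig 7. The same pig went against the rest, and the log2 fold change was 0.69 (SE 0.46) with it and 1.3 without it. The folate transporter SLC46A1 was at 0.71 and 1.23, respectively, and BCO1, which cleaves beta-carotene, at 0.46 and 1.28. SCT, the hormone secretin, known by the study's table, was at 0.79 (SE 0.48) with all pigs. In pig 7 its level went from 0.63 to -0.26, and in the other 3 pigs it was higher in WOd.

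Without pig 7, 78 named genes passed the raw p and the fold change, 43 upregulated (1.75%) and 35 downregulated (1.42%) of 2462. Of these, 16 had passed with pig 7. In pig 7 the ratio was below 0 for 28 of the 43 and above 0 for 26 of the 35, against 37.1% and 60.8% of all named genes. It was past 1.5-fold in that opposite direction for 18 and 13 genes. EPHX1, the microsomal epoxide hydrolase, had ratios of 1.22, 1.08 and 0.40 in pigs 5, 6 and 8 and -1.83 in pig 7. CYP2B22, a cytochrome P450, had ratios of 1.16, 0.75 and 0.30 against -1.67. XPNPEP2, a brush border aminopeptidase, had ratios of -3.13, -0.62 and -1.18 against 1.25, and SLC10A2, the ileal bile acid importer, -1.58, -0.51 and -0.69 against 1.18. These 4 genes were singled out after their values were seen. Across 25677 probes, the ratios of pig 7 correlated with those of pigs 5, 6 and 8 with r of -0.13, 0.05 and -0.12, and those of the other 3 pigs among themselves with r from -0.01 to 0.04. Probes are not independent replicates, and these values describe 4 pairs of arrays.

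**Figure D3:**
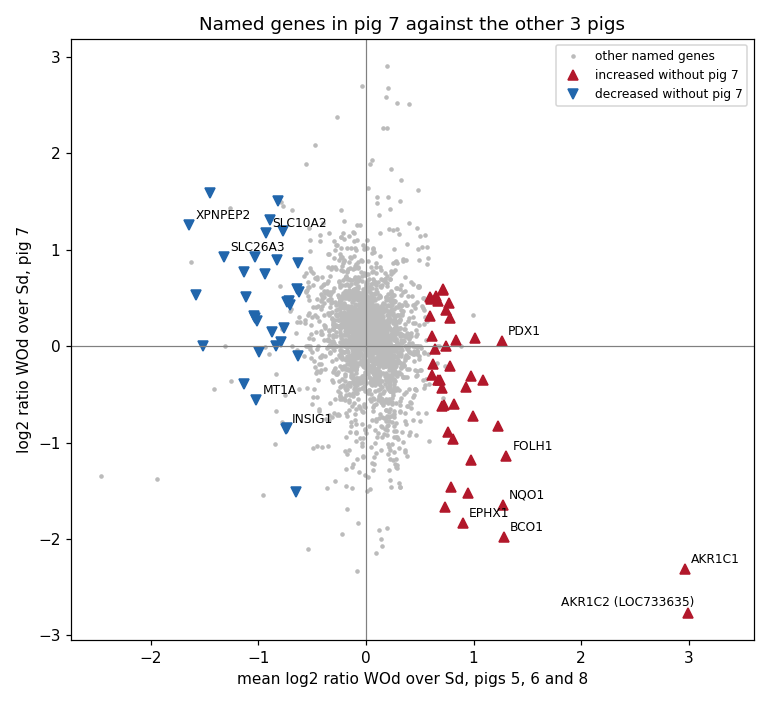
WOd over Sd log2 ratio of pig 7 (y axis) against the mean ratio of pigs 5, 6 and 8 (x axis) for the named genes, each point being a gene, with triangles for genes past both thresholds without pig 7. AKR1C1 and LOC733635 lie at the lower right, with means near 3 and pig 7 ratios of -2.31 and -2.76.

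Markers of distal intestine varied by pig as well. FABP6, the ileal bile acid binding protein, had a level of 6.47 in Sd and 0.43 in WOd in pig 6, but went from -0.33 to 1.20 in pig 5, from 1.68 to 2.55 in pig 7 and from -2.06 to -2.44 in pig 8. The direction differed between pigs and the log2 fold change was -1.0 (SE 1.14). The summed signal of the 3 measured distal markers was 2.57 to 95.8 on Sd arrays and 1.62 to 8.48 on WOd arrays, and the median ratios were -1.27, -0.51, 0.87 and -0.69 in pigs 5, 6, 7 and 8. The signs of these medians of 3 markers were opposite to those of AKR1C1, NQO1 and FOLH1 in every pig. FABP6 by itself had a ratio of 1.53 in pig 5, the same sign as AKR1C1 there. The comparison was made with the values known. The labels used here do not give the position of a segment along the gut, and its part in these results was not tested.

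Most pathways showed no gene past the thresholds. Of the 35 pathway lists, 27 had no call, and over all of them 6 members were upregulated and 6 downregulated of 451 tested, 1.33% in each direction against 0.769% and 0.364% of all named genes. The lists were chosen with results known, so nothing is read from these shares. Medians of the 31 lists with at least 5 tested members lay between -0.13 and 0.15. Medians of several immune lists lay above 0 in pigs 5 and 7 and below 0 in pigs 6 and 8. The 26 interferon response genes had median ratios of 0.46, -0.35, 0.18 and -0.20 in pigs 5, 6, 7 and 8, and the 9 MHC class II genes 0.20, -0.28, 0.34 and -0.41. The 13 cell cycle and replication genes had -0.41, -0.12, 0.38 and -0.43, with 0 called by limma, also by the raw p alone. CDK1, a mitotic kinase, was at -0.25. In the chemokine list of 21 genes, CCL19 was at -0.89 and CXCL12, a stromal chemokine, at -0.95, where the ratio of pig 6 was -2.74. The 34 cytosolic ribosomal protein genes had a median of 0.04, with 32 above 0, against 0.04 and 60.5% over all named genes. Of their probes 32 were saturated on at least 4 of the 8 arrays, so that changes could be understated. Glutathione S-transferase GSTA1 was at 0.34, MGST3 at 0.31 and the P450 enzyme CYP3A29 at 0.14, each saturated on 5 of 8 arrays, where a difference can be understated. CYP1A1, a P450 enzyme, was at -0.46. None of these 4 passed. For SLPI, a secreted protease inhibitor, the brightest probe, saturated on 2 arrays, was at -0.70 and did not pass, whereas 4 of its 7 probes did.

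**Figure D4:**
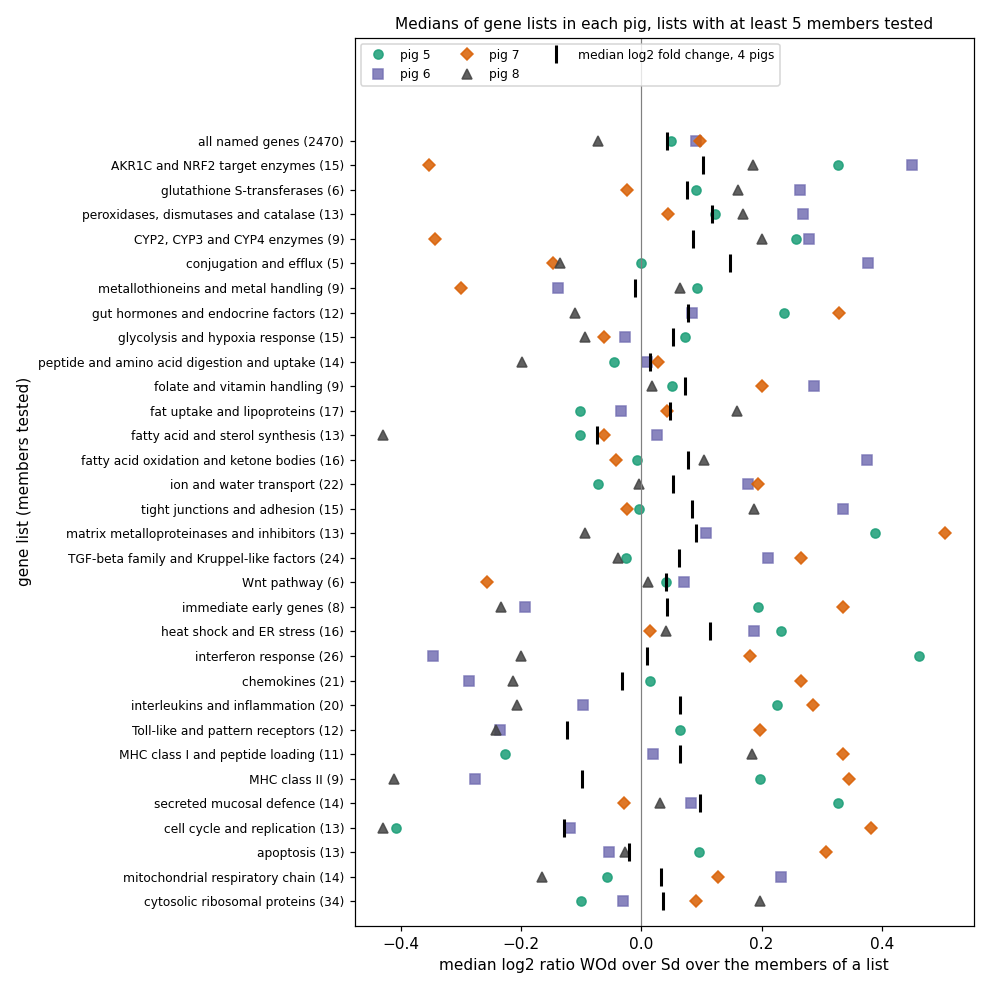
Median WOd over Sd log2 ratio of each gene list in pigs 5, 6, 7 and 8 (points) and the median log2 fold change over the 4 pigs (vertical ticks), for lists with at least 5 members tested. The ticks lie between -0.13 and 0.15, while the points of many lists spread to both sides of 0, as for the NRF2 target enzymes from -0.35 in pig 7 to 0.45 in pig 6.

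The difference between the effects of YOd and WOd was tested over all 14 arrays. By the same thresholds 1656 of 26470 probes passed (6.26%), 521 of them higher after YOd and 1135 higher after WOd. By limma 1849 had a raw p under 0.05 and 0 remained after adjustment. Without scaling, the median of all probes moved by -0.27 to -0.23, and the split became 64 against 2690. Of the 28 genes past the thresholds in WOd/Sd, 18 (64.3%) had the same sign in YOd/Sd, against 58.3% of 2436 named genes. Of the upregulated genes 3 passed there too, where 3.49% of all named genes were upregulated. They were PDX1 at 1.25 (SE 0.39), KCNJ5 at 1.34 (SE 0.28) and KLF10 at 0.60 (SE 0.23). The YOd level minus the Sd level in pigs 1, 2 and 4 was 1.78, -0.02 and 2.00 for PDX1. For KCNJ5 it was 2.05, 1.38 and 0.58, and for KLF10 0.85, -0.06 and 1.02. The WOd/Sd and YOd/Sd comparisons come from different pigs and share no control array.

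For 11 of the 28 genes the difference itself passed the thresholds. These genes had been selected by their WOd/Sd value, which is part of the difference, so the count is a description. LEF1 was at -0.78 in WOd/Sd and 1.13 (SE 0.36) in YOd/Sd, LOX at -0.64 and 1.44 (SE 0.73), and C13H21orf62 at -0.87 and 0.68 (SE 0.35). The YOd values varied by pig. The YOd level minus the Sd level in pigs 1, 2 and 4 was 2.29, 0.64 and 0.45 for LEF1. For LOX it was 3.95, -0.16 and 0.53, and for C13H21orf62 0.64, -0.29 and 1.70. EDN1 was at -0.69 and 0.20. Among upregulated genes GDF15 was at 0.70 in WOd/Sd and -0.51 (SE 0.21) in YOd/Sd, PGA5 at 0.69 and -0.26, GPX2 at 0.67 and -0.21 and MAPK12 at 0.65 and -0.12. P2RY4, SRSF12 and SLC24A2 lay between -0.02 and 0.03 in YOd/Sd. INSIG1 and SQLE were at -0.41 (SE 0.22) and -0.39 (SE 0.20) in YOd/Sd, means below 0 with both onions. The YOd level minus the Sd level in pigs 1, 2 and 4 was -0.96, 0.12 and -0.38 for INSIG1. For SQLE it was -0.30, 0.005 and -0.86. The differences of 0.36 (SE 0.27) for INSIG1 and 0.25 (SE 0.29) for SQLE did not pass. Yellow and white onion digests were given to different pigs, so onion and pig cannot be told apart in the difference.

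**Figure D5:**
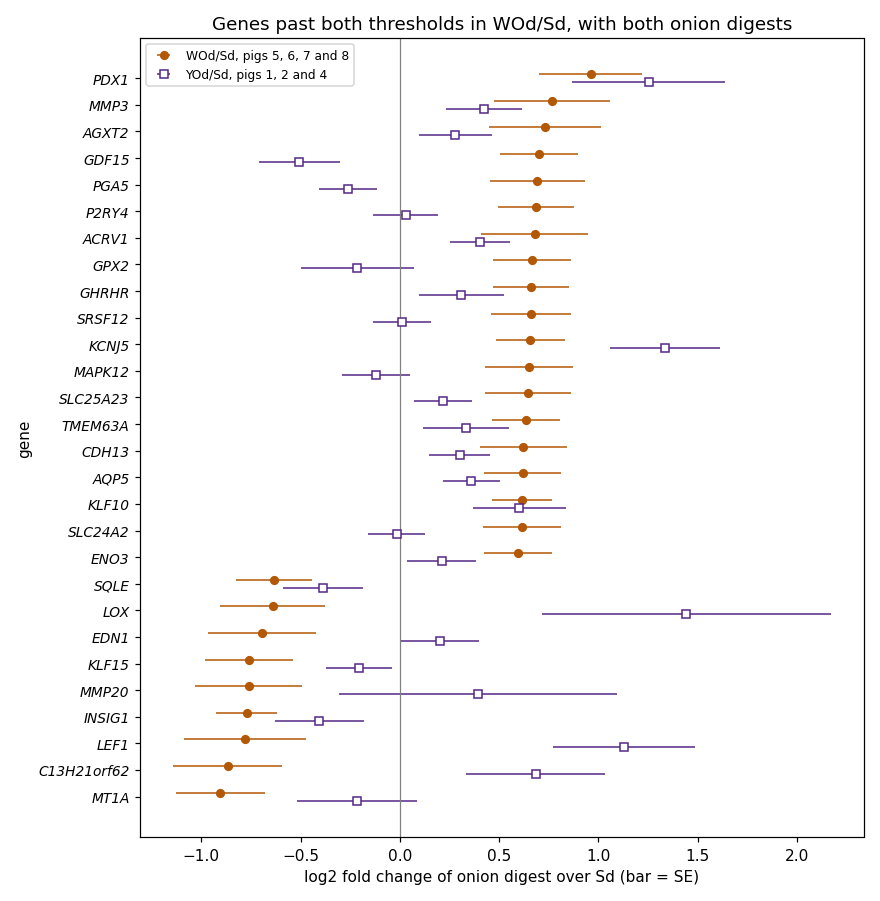
Log2 fold change and SE of the 28 genes in WOd/Sd (filled circles, pigs 5, 6, 7 and 8) and in YOd/Sd (open squares, pigs 1, 2 and 4). KLF10, PDX1 and KCNJ5 lie above 0 with both onions, while LEF1 and LOX lie below 0 with WOd and at 1.13 and 1.44 with YOd.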

How the data were processed

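Mucosa of WOd and Sd segments was measured on 1-colour Agilent pig arrays. The authors deposited the processed signal intensity of each spot from Feature Extraction, after background subtraction and detrending, and a table of log2 values centred per probe, whose normalization the text of the methods does not name. The submitters' processing notes list RMA. RNA was of high integrity by the study's methods.

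An array carried 43603 probes on 43803 spots beside the controls. On the 8 arrays, 50.05% to 70.5% of probes were well above background. The number of arrays limits the precision. Outlier spots were left out, 24 to 462 per array, replicate spots were averaged, each array was scaled to its own 75th percentile, values under the 40th percentile of the 14 arrays pooled were set to it, and log2 was taken. Probes above the floor on at least 4 of the 8 arrays were fitted with limma 3.58.1 (R 4.3.3), and pig entered as a block, following the paired analysis of the methods. Pairing comes from the pig numbers of the labels, which mark 1 animal each, and same-pig r after subtraction of group means was 0.31 to 0.69, against at most 0.25 between pigs. With 4 pairs, an exact two-sided sign-flip test could not go below 0.125. Python 3.11.15 was used for the other steps, and the fits were tested on simulated data.

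RefSeq accessions matched 6686 of 7111 probes to 3020 genes of the Sscrofa11.1 reference, used for names only. For a gene with several probes the one with the highest mean was used. Genes were named if they passed the thresholds, up to 15 in each direction, if the study names them for the pig or for both other models, as list members that passed or else the 2 lowest p-values of a list, and as 5 probes per direction named only by the study's table. Upregulated genes numbered 19, so AQP5, KLF10, SLC24A2 and ENO3 came from outside the first part of the rule. The members and lists were chosen with earlier results of these data known. Alternatives covered block, normalization, background, floor, filter, centring, deposited values, slide, fold threshold, probe choice and each pig left out.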

Additional observations from a re-analysis of the deposited data

Results flagged for a closer look

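In 294 groups of 4 values, 18 held a sample far from the other 3. Chance alone marks about 1 in 20 such groups.

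Pig 7 was such a sample for LOC733635, with a ratio of -2.76, for NQO1, with a WOd level of -0.43 and a ratio of -1.65, and for CLDN6, a claudin, with a WOd level of -1.39 against -3.82 to -3.48 in the other pigs. Pig 6 was far from the others in the ratios of CXCL12, -2.74, and of TLR2, a receptor of bacterial lipoproteins, -2.61. It was so too in the WOd levels of P2RY4, -3.16, and PPARG, 2.55, and in the Sd level of GSTA1, 5.52. In pig 5 the ratios of PGA5, 1.56, HMOX1, 0.43, and CYP1A1, 1.41, stood apart, the last against -1.28 to -0.87 in the other pigs. So did its WOd levels of GPX2, -1.39, and FOS, 0.27, and its Sd level of ZNF462, -3.48. Pig 8 stood apart in the Sd levels of KLF15, 2.13, and XPNPEP2, 0.27, and in the ratio of ZNF462, -2.96.

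The YOd effect minus the WOd effect passed the raw p and the fold change for 12 genes named in WOd/Sd, with adjusted p-values of limma from 0.705 to 0.713. It was below 0 for GDF15 (-1.21), PGA5 (-0.95), NAT6 (-0.90), GPX2 (-0.88), MAPK12 (-0.77), P2RY4 (-0.66), SRSF12 (-0.65) and SLC24A2 (-0.63). It was above 0 for LOX (2.08), LEF1 (1.90), C13H21orf62 (1.55) and EDN1 (0.90).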

How the results depend on the processing

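Of 339 probes and 28 named genes past the thresholds, 134 and 10 were counted with no replicate block, 62 and 9 with normexp, which ran on the median spot signal, 84 and 14 on the deposited log2 values, 727 and 80 with slide as a block, which in effect takes pig 7 out, and 816 and 59 with no fold threshold. Normexp turned the split of probes to 25 upregulated and 37 downregulated. Leaving out a pig gave 490 to 742 probes and 33 to 78 genes, with 629, 490, 742 and 546 probes without pigs 5, 6, 7 and 8. The cause was not tested. All other settings stayed within 1.5 times. Of the 339 probes, 130 passed again with no replicate block, 269 with quantile normalization and 56 of 323 with normexp, and in every setting those tested had the same sign. Of 38 probes that passed and that the text names, 2 did so in every setting and 10 whichever pig was left out. For the difference between onions, 290 probes passed with no replicate block, 2754 without scaling, 762 with normexp, 2968 with slide as a block and 796 to 2505 with a pig left out, the ends being pigs 1 and 2. Without pig 4 there were 874. Signs turned for genes that had not passed. With the mean of a gene's probes PTGR1 was at -0.035, CYP3A29 at -0.12, NDUFA4 at -0.047 and RPS12 at -0.069. GCLM was at 0.16 with no replicate block and 0.22 with slide as a block, and TAP2 at -0.014 with slide as a block. With a pig left out, GCLM ranged from -0.27 to 0.22, TAP2 from -0.014 to 0.55, HMOX1 from -0.015 to 0.14, HSPB1 from -0.035 to 0.25, SULT2A1 from -0.059 to 0.62, FABP6 from -1.85 to 0.68, SLA-DOB from -0.49 to 0.045 and PMAIP1 from -0.53 to 0.091.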
